A study of Mus musculus with 4 samples.

Results

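The VEGF and angiopoietin systems were followed through the cells of the mouse sciatic nerve by 10 genes: the ligands Vegfa, Vegfb, Vegfc, Angpt1 and Angpt2, and the receptor genes Flt1, Kdr, Flt4, Tek and Tie1. The members were taken by gene name from the count files, where they were 10 of the 22716 genes listed, and each had at least 1 UMI (unique molecular identifier, a counted RNA molecule) in all 4 libraries. The libraries were Drop-seq libraries, in which single cells are captured in droplets with barcoded beads, all from wild-type CD1 mice. At 3 days post-injury (3 DPI) the distal part of the adult sciatic nerve was taken after resection of the nerve on 1 side, and the uninjured library came from adult nerve without injury. Neonatal replicate 1 was prepared from P3 to P4 nerve and sorted by FACS, and neonatal replicate 2 came from P2 to P3 nerve. The 3 DPI, uninjured and neonatal replicate 2 suspensions were instead cleared with myelin removal beads. All nerves were dissociated with enzymes, and the sources used here do not give the number of animals pooled in a library. With 1 library for each adult condition and different preparations of the neonatal nerve, condition and library cannot be told apart, so no test between conditions was made.

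VEGF ligands act through receptor tyrosine kinases. VEGFA binds VEGFR1 (the Flt1 product) and VEGFR2 (the Kdr product), VEGFR2 being the main signalling receptor for vessel growth and VEGFR1 a high-affinity receptor that can also hold ligand away from VEGFR2. VEGFB binds VEGFR1, and VEGFC acts on VEGFR3 (the Flt4 product), the receptor of lymphatic endothelium, and in processed form on VEGFR2. Angiopoietin 1 activates TIE2 (the Tek product) and is known as a mural cell signal that stabilizes vessels, angiopoietin 2 is a context-dependent ligand of the same receptor, and TIE1 is a related receptor that forms complexes with TIE2. In peripheral nerve, vessels run in the epineurium and endoneurium, and those of the endoneurium form the blood-nerve barrier.

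The genes lie apart in the genome, as annotated by GENCODE M21 on GRCm38 (the build that mm10 names). The VEGF ligand genes are Vegfa at chr17:46016993-46032369 on the minus strand, Vegfb at chr19:6982473-6987651 on the minus strand and Vegfc at chr8:54077606-54187096 on the plus strand. The VEGF receptor genes are Kdr at chr5:75932827-75978458 (minus), Flt1 at chr5:147561604-147726011 (minus) and Flt4 at chr11:49609263-49652739 (plus). Angpt1 spans chr15:42424723-42676977 (minus), Angpt2 chr8:18690263-18741562 (minus), Tek chr4:94739289-94874976 (plus) and Tie1 chr4:118471191-118490061 (minus). UMIs were counted over genes, so the values below do not say which exons or transcripts were read.

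Kdr, Flt1 and Tek were highest in the same cells, the endothelial-like class, and the 250 bases upstream of their RefSeq start sites (GRCm38.p6) are given for that reason, 5′ to 3′ on each gene's own strand. Capitals mark GGAA, the core of sites bound by ETS factors, and TTCC, which is the same motif on the opposite strand; no matches overlapped.
Kdr, chr5:75978456-75978705, minus strand: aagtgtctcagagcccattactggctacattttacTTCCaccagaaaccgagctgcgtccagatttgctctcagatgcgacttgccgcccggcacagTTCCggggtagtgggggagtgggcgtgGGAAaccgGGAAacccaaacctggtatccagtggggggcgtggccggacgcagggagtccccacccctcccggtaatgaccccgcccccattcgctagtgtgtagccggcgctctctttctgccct
Flt1, chr5:147726012-147726261, minus strand: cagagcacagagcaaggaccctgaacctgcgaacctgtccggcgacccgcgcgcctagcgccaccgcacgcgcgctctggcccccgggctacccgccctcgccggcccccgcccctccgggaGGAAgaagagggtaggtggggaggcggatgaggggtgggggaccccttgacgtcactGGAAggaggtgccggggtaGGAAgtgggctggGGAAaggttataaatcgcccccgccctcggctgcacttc
Tek, chr4:94739039-94739288, plus strand: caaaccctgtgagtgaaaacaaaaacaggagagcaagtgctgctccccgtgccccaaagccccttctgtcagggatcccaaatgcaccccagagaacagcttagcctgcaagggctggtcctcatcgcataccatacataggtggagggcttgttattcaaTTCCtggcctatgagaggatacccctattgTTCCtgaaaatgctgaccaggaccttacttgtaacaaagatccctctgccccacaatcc
Kdr and Flt1 each had 4 matches, Tek had 2, and the promoter of Tie1, which is not printed, had 7. Of the 32851 mouse promoters of the same length, 93.4% had at least 1 match and the median was 3. As many matches as in Kdr and Flt1 were found in 33.4% of all promoters, as many as in Tek in 76.8%, and as many as in Tie1 in 3.82%. A match describes the letters of this window and is not a bound site. Promoters of 8 of the 10 members were in the table; Angpt1 and Angpt2 were not.

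The total count was 4513814 UMIs in the uninjured library, which was the smallest, and 8123103 at 3 DPI, which was the largest, with 5110171 and 7634799 UMIs in the neonatal libraries. Of these, 11610 cells were kept, with a library median of 997.5 to 1817 UMIs per cell. No more than 3 cell barcodes were shared between any pair of libraries. Cells were clustered without the member genes and without the other genes of the pathway, so no member defined a class, and clusters were named from marker lists. The endothelial-like class held 240, 420, 140 and 472 cells at 3 DPI, in the uninjured nerve and in neonatal replicates 1 and 2, and values are given in that order of libraries below. Its 9 markers, among them Pecam1, Cdh5 and Cldn5, summed to 8063 to 9989 CPM (UMIs of a gene per 1000000 UMIs of the class) in the endothelial-like cells and to at most 687 CPM in any other class. The vascular smooth muscle and pericyte-like (VSM/pericyte-like), Schwann-like, endoneurial-like, epineurial-like and perineurial-like classes also had their own markers highest in every library that held them, the perineurial-like class being absent at 3 DPI. The epineurial markers were weaker in the neonatal libraries (707 and 416 CPM) than in the adult ones (2962 and 5312 CPM), so the neonatal epineurial-like class carries its name less firmly. A further 477 mesenchymal cells at 3 DPI took no nerve layer name.

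The VEGF and angiopoietin receptor genes and the ligand gene Vegfc had their highest CPM in the endothelial-like cells of every library, whereas Vegfa, Angpt1 and Angpt2 were highest in a mural or mesenchymal class and Vegfb in a different class of each library. Of the 9 members that could be tested across classes, 6 were higher in endothelial-like cells than in the mean of the 5 other classes present in all libraries, and 17.8% of the 9907 genes tested were also higher there. None of the 9 members was lower, beside 12.6% of all genes, by the quasi-likelihood test of edgeR, while 1 was lower at an unadjusted p under 0.05 and 0 by DESeq2. Here the 4 libraries served as replicates and stood as a block in the fit, which takes out the overall level of each library. The spread left is that of class differences between libraries, into which condition, age and preparation enter only where they change those differences. Flt4 was too rare for this test.

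Kdr, which encodes VEGFR2, was found at 477, 355, 551 and 780 CPM in the endothelial-like cells (3 DPI, uninjured, neonatal 1 and neonatal 2). A Kdr UMI was seen in 55.4%, 47.4%, 64.3% and 53.0% of these cells. In the other classes Kdr reached at most 25.2 CPM, from 1 UMI in the immune-like cells of neonatal replicate 2, so the endothelial-like values and the rest did not overlap. The difference between endothelial-like cells and the other classes was 6.41 on the log2 scale (SE 0.28, edgeR adjusted p = 7.09e-15), higher in 4 of 4 libraries. Of the Schwann-like cells, which should lack Kdr and had median depths of 916 to 1925 UMIs against 1387.5 to 2031.5 in the endothelial-like class, 0.708% to 5.04% had a Kdr UMI.

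Flt1, which encodes VEGFR1, stood at 874, 1300.3, 533 and 475 CPM in the endothelial-like cells, and in 65.8%, 75.0%, 54.3% and 47.5% of them. The uninjured library was highest and both neonatal libraries were lowest. Averaged over libraries, the endothelial-like class was 5.95 higher on the log2 scale than the other classes (SE 0.33, edgeR adjusted p = 3.81e-13). Flt1 also had 16 to 40 UMIs in the VSM/pericyte-like class.

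Tie1 was the most even of the receptor genes across libraries, at 278, 254, 356 and 314 CPM in endothelial-like cells, where 37.5% to 52.9% of cells had a UMI. Outside this class it reached at most 11.1 CPM, a level that 2 UMIs gave in the neonatal replicate 1 immune-like cells. Tek stood at 283, 325, 152 and 256 CPM in the endothelial-like cells and was found in 42.1%, 45.2%, 25% and 31.4% of them, fewest in neonatal replicate 1. Both were higher in endothelial-like cells than in the other classes, Tie1 by 5.96 (SE 0.28, edgeR adjusted p = 1.72e-14) and Tek by 4.51 (SE 0.23, edgeR adjusted p = 7.34e-14) on the log2 scale. At least 1 of Kdr, Flt1, Tek and Tie1 was detected in 84.2%, 91.9%, 89.3% and 79.4% of the endothelial-like cells. Kdr and Flt1 were found together in 107, 169, 50 and 149 of these cells, and in 0 of the epineurial-like cells of any library.

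Flt4, which encodes VEGFR3, had few UMIs: 16, 72, 9 and 16 in the endothelial-like cells, or 15.0, 54.5, 26.2 and 16.0 CPM. It was highest in the endothelial-like class of each library, and no other class had more than 3 UMIs. Where a class had 0 UMIs of a gene, a count of 0 still allows 3 counts, which for Flt4 in the 77 VSM/pericyte-like cells at 3 DPI comes to 14.4 CPM and to a UMI in 3.9% of cells, which does not limit the share of cells that express it. All intervals and such limits here cover counting error only, not the differences between animals.

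**Figure D1:**
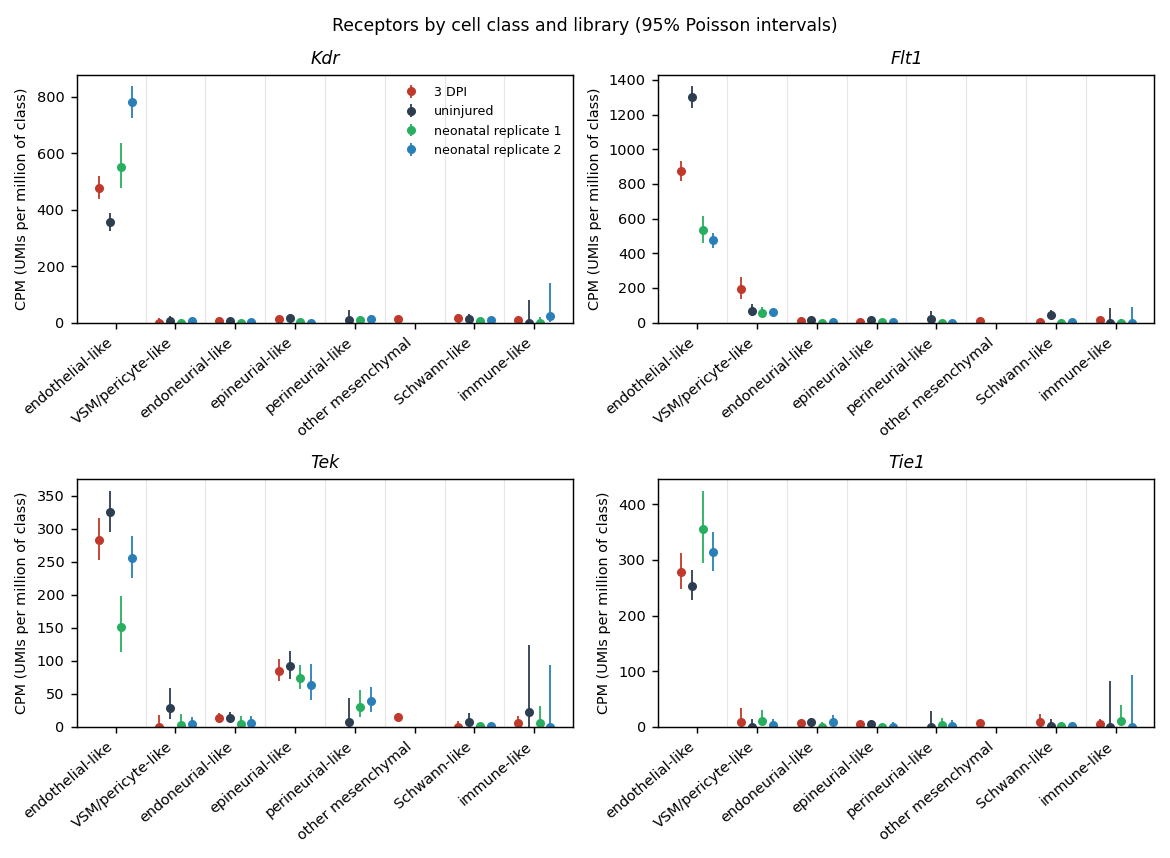
CPM of Kdr, Flt1, Tek and Tie1 in each cell class, with a point for each of the 4 libraries and bars for the 95% Poisson interval. Kdr, Flt1 and Tie1 stand highest in the endothelial-like class in all 4 libraries, and Tek has its second level, 63.6 to 92.6 CPM, in the epineurial-like class.

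The balance of the VEGFA receptors differed between libraries. Per UMI of Kdr, the endothelial-like cells had 1.83 UMIs of Flt1 at 3 DPI (95% interval 1.64 to 2.05), 3.67 in the uninjured nerve (3.31 to 4.07), 0.968 in neonatal replicate 1 (0.786 to 1.19) and 0.609 in neonatal replicate 2 (0.542 to 0.683). None of the 4 intervals overlapped, the uninjured nerve being highest and neonatal replicate 2 lowest. These are ratios of UMIs between genes of different length, and are read only from library to library. Of the 1719 uninjured Flt1 UMIs, 884 were in the barrier-like cells described below, which had 7.49 Flt1 UMIs per Kdr UMI. No barrier-like cells were named in the other libraries. What part the mix of vessel cells had in these ratios was not tested. For the angiopoietin receptors, the UMIs of Tie1 per UMI of Tek were 0.983, 0.781, 2.35 and 1.23, with neonatal replicate 1 (1.68 to 3.31) above the 3 others.

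Within the endothelial-like class, the receptors and Vegfc differed between kinds of vessel cell. The uninjured endothelial-like cells formed 6 subclusters, of which 5 took a vessel name from markers, and those of neonatal replicate 2 formed 5, of which 2 took one. The 3 subclusters at 3 DPI and the single one of neonatal replicate 1 stayed unnamed, so no vessel kind can be compared with the injured nerve. Subcluster values are descriptions within 1 library, with no test.

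The 151 barrier-like cells of the uninjured nerve, led by Mfsd2a, Slco1a4 and Lef1 (genes of barrier endothelium), had Flt1 at 1999 CPM and Kdr at 267 CPM. This gave 7.49 Flt1 UMIs per Kdr UMI (6.18 to 9.16). The 115 capillary-like cells, led by Penk, Rgcc and Gpihbp1, had Flt1 at 1616 CPM but Kdr at 983 CPM, the highest Kdr of the named blood vessel subclusters, and a ratio of 1.64 (1.36 to 1.996). Barrier-like and capillary-like cells of the same nerve therefore differed in Kdr more than in Flt1. The 89 venous-like cells, led by genes such as Sele, Vcam1 and Selp, had less Flt1 than either, 849 CPM, with 307 CPM of Kdr and a ratio of 2.77 (2.14 to 3.61). In the 25 arterial-like cells, which express Gja5 and Gkn3, Kdr had its lowest level among the blood vessel subclusters with a name, 65.3 CPM from 9 UMIs, beside 559 CPM of Flt1 and a ratio of 8.56 (4.28 to 19.4).

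Vegfc, the ligand of VEGFR3, was highest in the arterial-like cells. In the uninjured nerve the 25 arterial-like cells held 32 of the 67 endothelial-like Vegfc UMIs and had 232 CPM, against 50.7 CPM in the class as a whole. In neonatal replicate 2 the 44 arterial-like cells had 164 CPM of Vegfc, against 59.0 CPM in the class. Tek was also highest in the arterial-like cells, at 530 CPM in the uninjured nerve and 422 CPM in neonatal replicate 2, and the uninjured arterial-like cells had 0.534 Tie1 UMIs per Tek UMI (0.353 to 0.799).

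Flt4, the gene of its receptor, was densest in a very small group of cells of the uninjured nerve. All 10 lymphatic-like cells of the uninjured nerve, led by Ccl21a, Lyve1, Mmrn1 and Reln, had a Flt4 UMI, and they held 31 of the 72 Flt4 UMIs of the class, or 1843 CPM. Kdr was present in these cells, with 17 UMIs (1011 CPM), whereas Flt1 and Tek had 1 UMI each and Tie1 had 5. The lymphatic-like cells were the reverse of the barrier-like cells in the VEGFA receptors, with 0.0588 Flt1 UMIs per Kdr UMI (0.00141 to 0.375). They also had 6 UMIs of Angpt2 (357 CPM), and Angpt2 stood at 115 CPM in the barrier-like cells. Flt4 was not part of the lymphatic marker list.

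**Figure D2:**
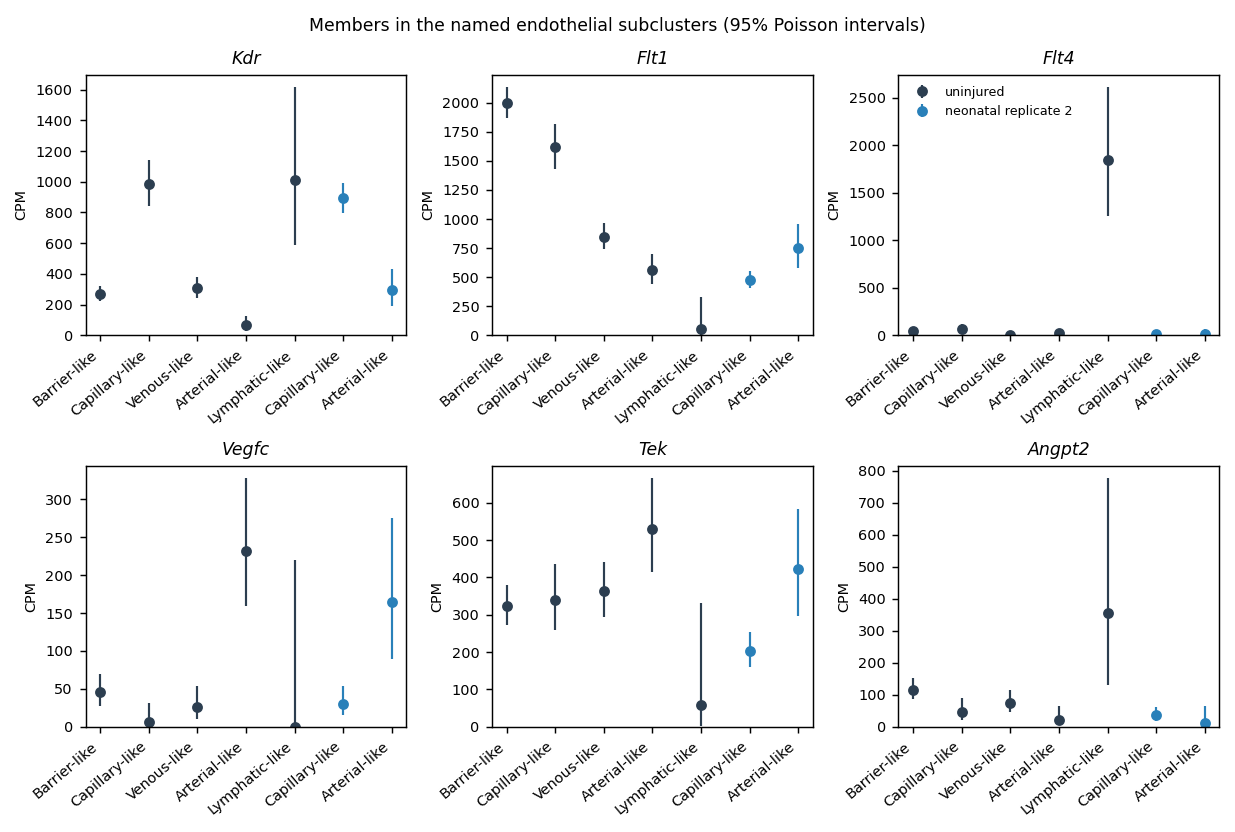
CPM of Kdr, Flt1, Flt4, Vegfc, Tek and Angpt2 in the named endothelial subclusters of the uninjured nerve and neonatal replicate 2, with 95% Poisson intervals. Flt4 is highest in the 10 lymphatic-like cells, Vegfc in the arterial-like cells of both libraries, and Kdr is lower in the uninjured barrier-like and arterial-like cells than in the capillary-like cells.

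The like-named subclusters of the neonatal and the uninjured nerve could be set side by side. Capillary-like cells of neonatal replicate 2 (248 cells) had Flt1 at 0.296 times the uninjured level (0.244 to 0.359), whereas Kdr stood at 0.907 times (0.753 to 1.10). Arterial-like cells of neonatal replicate 2 had Kdr at 4.49 times the uninjured level (2.03 to 10.9) and Flt1 at 1.34 times (0.948 to 1.89). The interval of Flt1 lay below 1 in the capillary-like cells and that of Kdr above 1 in the arterial-like cells, and whether the kinds of cell differ in this was not tested. The capillary name of the neonatal cells was lost with finer clustering. Tek in capillary-like cells was 0.597 times the uninjured level (0.419 to 0.854), and Tie1 0.769 times (0.555 to 1.07).

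The angiopoietin ligands had their highest CPM in the mural class. Angpt1 was highest in the VSM/pericyte-like class in all 4 libraries, at 149, 126, 182 and 70.8 CPM, with 31, 31, 51 and 35 UMIs. In the uninjured nerve its interval overlapped that of the epineurial-like cells, at 104 CPM. The VSM/pericyte-like class held 10.3%, 19.0%, 49.0% and 61.4% of the Angpt1 UMIs of the libraries. The uninjured epineurial-like cells held 54.0%. Angpt2 was highest in the VSM/pericyte-like class too, at 168, 183, 154 and 152 CPM, beside 74.0, 97.6, 58.3 and 54.0 CPM in the endothelial-like cells. These were second in 3 of the 4 libraries, and in neonatal replicate 2 the epineurial-like cells were, at 66.3 CPM. In the contrast of VSM/pericyte-like with endothelial-like cells, 2 of the 9 members tested were higher, beside 10.9% of all genes, and 5 were lower, beside 11.9% of all genes. The higher pair were Angpt1, by 3.58 on the log2 scale (SE 0.60, edgeR adjusted p = 6.66e-05), and Angpt2, by 1.16 (SE 0.42, edgeR adjusted p = 0.0485), each in 4 of 4 libraries. The call of Angpt2 was lost by DESeq2 and without any 1 of the 4 libraries, so that 1 member was then higher. The lower members were Kdr (log2 difference -7.36), Tie1 (-5.64), Tek (-4.90), Vegfc (-3.95) and Flt1 (-3.04), with edgeR adjusted p of 4.86e-09 to 0.000527.

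Angpt2 was uneven among the mural cells. In the uninjured nerve, the 87 cells led by Rgs5 (a gene of pericytes) had 40 Angpt2 UMIs, or 416 CPM, and the 91 cells led by Tesc and Pln (a gene of muscle calcium handling) had 5, or 33.4 CPM, a ratio of 12.5 (4.92 to 40.5). Angpt1 had 17 and 14 UMIs in the same clusters, a ratio of 1.89 (0.878 to 4.15). The interval for Angpt1 included 1, and that for Angpt2 did not. Across libraries, the UMIs of Angpt2 per UMI of Angpt1 in the VSM/pericyte-like class were 1.13, 1.45, 0.843 and 2.14. In the endothelial-like class that ratio was 5.64 at 3 DPI, 4.45 in the uninjured nerve and 7.71 in neonatal replicate 2. Neonatal replicate 1 had 20 Angpt2 UMIs and 0 of Angpt1 there. The adult ratios rest on Angpt1 UMIs that lay almost all in subclusters with mural markers, as given below.

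Endothelial-like Angpt1 moved with mural marker genes. Subclusters of 83 endothelial-like cells at 3 DPI, 30 in the uninjured nerve and 65 in neonatal replicate 2 were led by mural genes such as Myh11, Pdgfrb or Rgs5, and had median depths of 5296, 5128.5 and 3007 UMIs per cell. Of the Angpt1 UMIs of the endothelial-like class, 13 of 14 at 3 DPI and 29 of 29 in the uninjured nerve were in the mural-led cells. In neonatal replicate 2 these were 4 of 7. Of the Angpt2 UMIs of the class, 60 of 79, 41 of 129 and 22 of 54 were in the mural-led cells of the same libraries. The 9 mural markers summed to 2224 CPM in the mural-led cells at 3 DPI and to 5623 CPM in the uninjured nerve. The sums were 1720 and 1572 CPM in the whole endothelial-like class, and 25809 and 24790 CPM in the VSM/pericyte-like class. Whether the mural-led barcodes hold 1 cell or a pair of cells was not tested.

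Flt1 was the receptor gene whose second highest level was in the mural class in all 4 libraries. The VSM/pericyte-like cells had 40, 16, 16 and 30 Flt1 UMIs, or 192, 65.1, 57.2 and 60.7 CPM, while Kdr had 0, 1, 0 and 3 UMIs in the same cells. If Flt1 there had stood in the same ratio to the 9 endothelial markers as in the endothelial-like cells, 15.3, 16.5, 7.15 and 14.4 Flt1 UMIs would be counted, so that the excess was seen at 3 DPI and in both neonatal libraries but not in the uninjured nerve. By the same ratio Kdr would have 8.32, 4.51, 7.38 and 23.6 UMIs, all above its counts. Within the uninjured mural cells, Flt1 had 13 UMIs in the Rgs5-led cluster and 3 in the Tesc- and Pln-led one, a ratio of 6.76 (1.86 to 37.0).

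**Figure D3:**
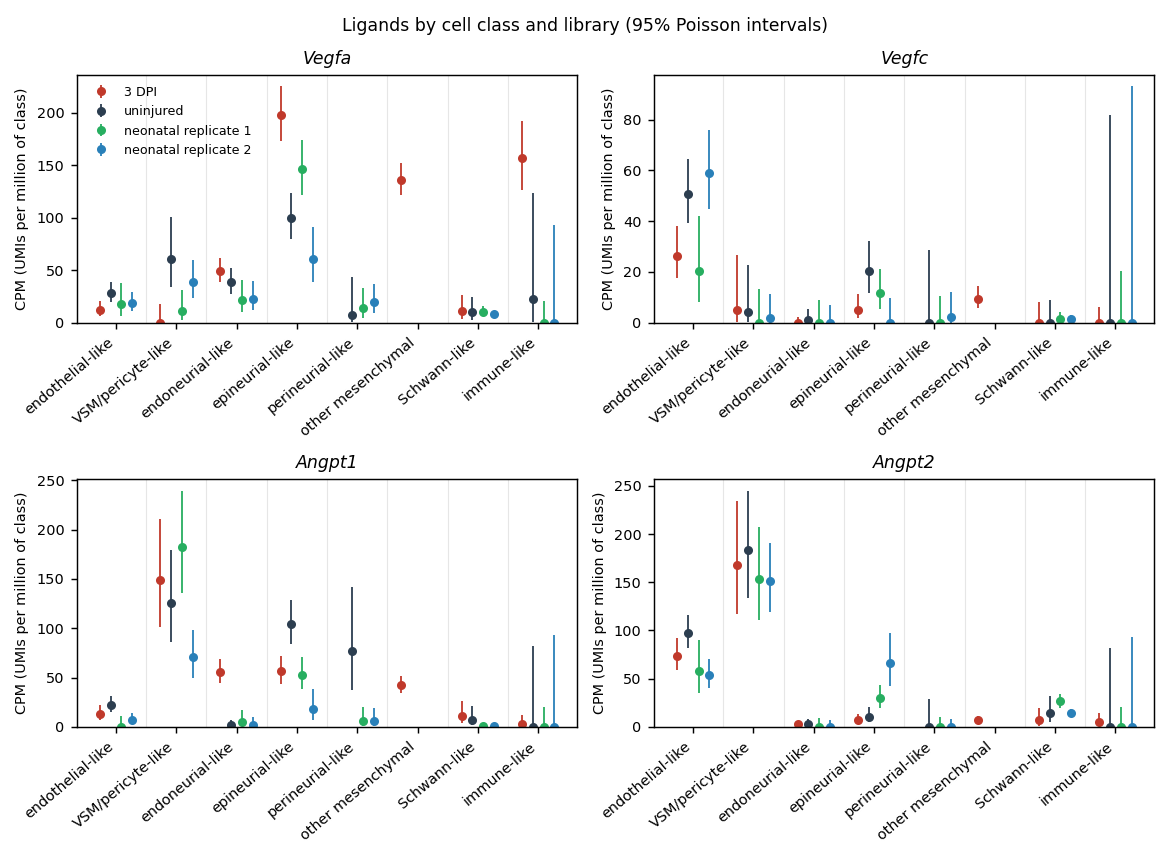
CPM of Vegfa, Vegfc, Angpt1 and Angpt2 in each cell class, a point per library with 95% Poisson intervals. Angpt1 and Angpt2 are highest in the VSM/pericyte-like class, Vegfa is highest in the epineurial-like class of each library, and Angpt1 in endoneurial-like cells stands at 55.7 CPM at 3 DPI and at most 4.79 CPM in the other libraries.

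Vegfa, the main angiogenic ligand, was not led by the vessel cells. It was highest in the epineurial-like class of all 4 libraries, at 198, 99.7, 146 and 61.0 CPM, and in 30.0%, 15.8%, 21.4% and 7.41% of those cells. Its interval was apart from that of the second class only in neonatal replicate 1. At 3 DPI the next levels were those of the immune-like cells (157 CPM) and of the mesenchymal cells without a layer name (136 CPM), and the latter held 43.1% of the 737 Vegfa UMIs of the library. Endoneurial-like cells had 49.2, 38.6, 21.5 and 22.6 CPM, and the endothelial-like cells 12.2, 28.0, 17.5 and 19.0 CPM. Between endothelial-like cells and the other classes Vegfa did not pass the test (log2 difference -1.11, SE 0.50, edgeR adjusted p = 0.101).

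Among the mesenchymal classes, 5 of the 9 members tested were lower in endoneurial-like than in epineurial-like cells, beside 5.72% of all genes, and 0 were higher, beside 4.13% of all genes, by edgeR, as also at an unadjusted p under 0.05 and by DESeq2. Ligands and Tek were both among the lower members. Vegfa was lower by 1.98 on the log2 scale (SE 0.54, edgeR adjusted p = 0.0172), Angpt1 by 1.96 (SE 0.59, edgeR adjusted p = 0.0323), Angpt2 by 3.50 (SE 0.73, edgeR adjusted p = 0.00196) and Vegfc by 4.60 (SE 0.96, edgeR adjusted p = 0.0026). The Angpt1 difference was not seen at 3 DPI, where endoneurial-like and epineurial-like cells had 55.7 and 56.6 CPM, and its call was lost without the uninjured library (log2 difference -1.19) or either neonatal library, with classes from a cell's own markers, with finer clustering (resolution 0.8 in place of 0.4) and with a limit of 5% mitochondrial UMIs. That of Vegfa was lost without either neonatal library and with that mitochondrial limit. The Vegfc counts behind this were small, 5.14, 20.2, 11.5 and 0 CPM in the epineurial-like cells. Without either one of the neonatal libraries, in which the epineurial markers were weak, 3 members were lower.

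Vegfb, a ligand of VEGFR1, was the most evenly spread member. It stood between 15.0 and 52.7 CPM in every class where it was detected, and the intervals of the highest class and the next overlapped in all 4 libraries. It passed no class contrast (edgeR adjusted p = 0.266, 0.150 and 0.590). Vegfc was highest in the endothelial-like class of every library, at 26.2, 50.7, 20.4 and 59.0 CPM, and was 4.92 higher there on the log2 scale than in the other classes (SE 0.49, edgeR adjusted p = 6.78e-08). Angpt2 was 2.28 higher in the same contrast (SE 0.37, edgeR adjusted p = 3.48e-05).

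Tek, the angiopoietin receptor, had its second highest level in the epineurial-like cells of all 4 libraries. There it was found at 84.8, 92.6, 73.8 and 63.6 CPM, from 99, 78, 64 and 24 UMIs, and in 16.1%, 15.6%, 11.1% and 7.07% of cells. Thinned to 500 UMIs per cell, the share at 3 DPI was 4.77%. By comparison at most 0.845% of the Schwann-like cells of any library had a Tek UMI. Had Tek stood in its endothelial-like ratio to the 9 endothelial markers, 9.26, 6.06, 1.92 and 2.12 UMIs would be counted in the epineurial-like cells. Tie1, by contrast, had 6, 4, 0 and 0 UMIs there, against 9.10, 4.73, 4.50 and 2.60 at the endothelial-like ratio. In neonatal replicate 1 the epineurial-like cells held 64 of the 134 Tek UMIs of the library, more than the 52 of the endothelial-like cells. The Tie1 UMIs per UMI of Tek were 0.0606 and 0.0513 in adult epineurial-like cells, where the endothelial-like cells of the same libraries had 0.983 and 0.781. Of the epineurial-like cells with Tek, 13 of 71, 5 of 57, 3 of 45 and 0 of 21 had a UMI of another endothelial gene. The endoneurial-like cells had less Tek, 14.3, 14.1, 4.79 and 5.64 CPM, a log2 difference of -2.99 from the epineurial-like cells (SE 0.36, edgeR adjusted p = 2.26e-06).

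Epineurial-like Tek was highest in the clusters with the higher share of Pi16 cells, Pi16 being a gene of adventitial fibroblasts. In the uninjured nerve the 87 epineurial-like cells led by Krtdap, Pi16 and Smpd3 had 54 Tek UMIs, or 321 CPM, about the level of the uninjured endothelial-like cells (325 CPM). The 279 cells led by Cxcl14, Comp and Inmt had 24 UMIs, or 35.6 CPM, a ratio of 9.03 (5.49 to 15.3) between the clusters. Of the 37 Tek-positive cells of the Pi16-led cluster, 36 had a Pi16 UMI, in a cluster where 97.7% of cells had one, and 1 had Pecam1 or Cdh5. At 3 DPI the 266 cells led by Cxcl13 and Smpd3 had 93 Tek UMIs and the 174 led by Comp and Inmt had 6, a ratio of 14.1 (6.24 to 39.4), and 57 of 65 Tek-positive cells of the former had Pi16, in a cluster where 76.3% of cells had it, and 7 had Pecam1 or Cdh5. The Comp-led clusters, low in Tek, also held Pi16, in 39.8% of cells in the uninjured nerve and in 52.9% at 3 DPI. Cells of the clusters high in Tek had more Vegfa than the Comp-led cells. The level was 1.80 times as high in the uninjured nerve (1.09 to 2.91) and 2.48 times at 3 DPI (1.84 to 3.38). Angpt1 went the other way in the uninjured nerve, with 7 UMIs in the Pi16-led and 81 in the Comp-led cells (0.347, 0.135 to 0.748). In the neonatal nerve the perineurial-like cells also had Tek, at 30.9 and 38.6 CPM from 11 and 18 UMIs.

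**Figure D4:**
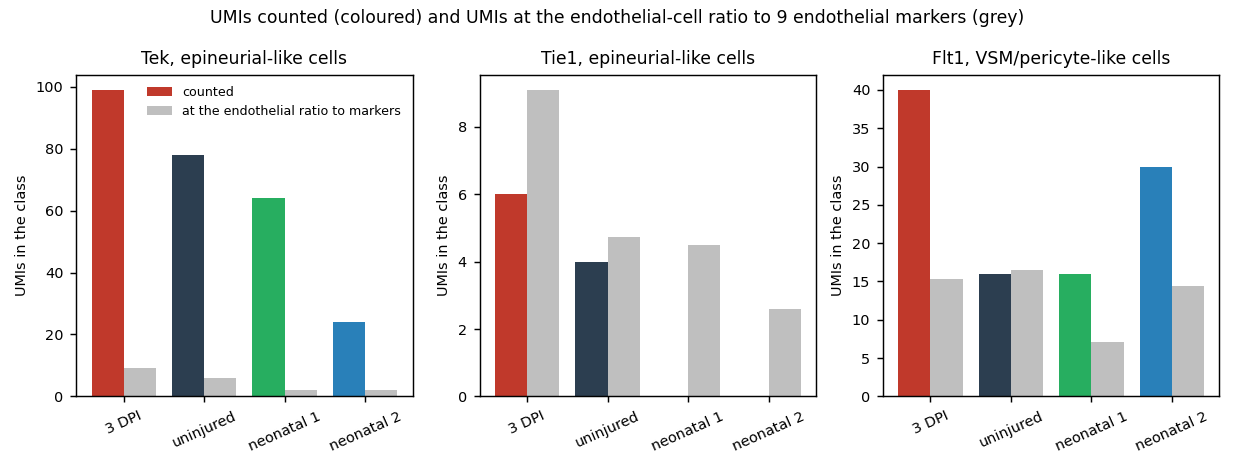
UMIs of Tek and Tie1 in epineurial-like cells and of Flt1 in VSM/pericyte-like cells as counted, beside the number expected at the endothelial-like ratio of each gene to 9 endothelial markers, for each library. Counted Tek (24 to 99 UMIs) is above the ratio in all 4 libraries, Tie1 is below it in all 4, and Flt1 is above it in 3 of 4.

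At 3 DPI the endothelial-like cells had a higher level of Kdr and a lower level of Flt1 than in the uninjured nerve. Kdr was at 1.34 times the uninjured level (1.18 to 1.53) and Flt1 at 0.673 times (0.62 to 0.729), whereas Tek (0.870, 0.749 to 1.01) and Tie1 (1.10, 0.934 to 1.28) had intervals that included 1. By a fixed rule of size, 2-fold either way among genes with at least 20 UMIs, 0 of the 10 members were higher, beside 7.42% of the 9731 genes compared, and 2 were lower, beside 6.22%. These were Vegfa, at 0.435 times (0.212 to 0.838) but at 0.913 times where each cell took its class from its own markers, and Flt4, at 0.275 times (0.149 to 0.478). Vegfc stood at 0.518 times (0.321 to 0.816) and Angpt2 at 0.759 times (0.566 to 1.01). The median log2 ratio of the members was -0.49, and that of all genes compared was 0.03. Taking out the mural-led subclusters was a choice made after seeing the data. It left 337638 of the 1066914 endothelial-like UMIs at 3 DPI and 1041018 of 1322020 in the uninjured nerve. The cells left at 3 DPI included 95 with a median of 619 UMIs. Kdr was then at 1.87 times, Flt1 at 0.863, Tek at 0.734 and Tie1 at 0.869 times the uninjured level. Flt1 per Kdr UMI was 1.71 against 3.69. No lymphatic-like or barrier-like cells were named at 3 DPI. What part the mix of vessel cells had in the levels of Flt4, Flt1 and Kdr was not tested.

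Other classes at 3 DPI differed from the uninjured nerve in single members. In the VSM/pericyte-like cells Flt1 was 2.95 times the uninjured level (1.62 to 5.64), and 1 of 3 members compared was higher, beside 13.4% of all genes, and 0 were lower, beside 11%. When each cell was thinned to 500 UMIs the ratio was 1.61. In the endoneurial-like cells, the fibroblast-like cells around the axons, Angpt1 had 86 UMIs in 44 of 277 cells (15.9%, 55.7 CPM) at 3 DPI against 2 UMIs in 418 cells (0.478%, 1.89 CPM) in the uninjured nerve. That ratio of 29.6 (7.94 to 248) rests on the 2 uninjured UMIs and was 4.74 after thinning. It was 5.32 where each cell took its class from its own markers. Of 5 members compared in these cells 1 was higher, beside 17.5% of all genes, and 1 was lower, beside 8.6%: Flt1, at 0.458 times (0.201 to 1.01). In the epineurial-like cells 0 of 6 members were higher, beside 8.73% of all genes, and 1 was lower, beside 3.21%: Vegfc, at 0.255 times (0.0823 to 0.678). At resolution 0.8 that ratio was 1.03, so neither the call nor the direction held.

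Vegfa at 3 DPI was just inside the 2-fold limit in the epineurial-like cells, at 1.99 times the uninjured level (1.54 to 2.58), and 1.23 times after thinning. Angpt1 stood at 0.542 times there (0.388 to 0.754), but at 2.06 times at resolution 0.8, where the direction turned. The immune-like cells, 512 at 3 DPI and 34 in the uninjured nerve, had 94 and 1 Vegfa UMIs, a ratio of 7.07 (1.24 to 282). At 3 DPI 92 of the 94 came from a cluster of 388 cells named by macrophage and monocyte markers, in 12.9% of its cells. In the VSM/pericyte-like cells at 3 DPI Vegfa had 0 UMIs in 77 cells, against 15 UMIs in 178 uninjured cells. In Schwann-like cells Flt1 had 1 UMI at 3 DPI and 19 in the uninjured nerve (0.0486, 0.00117 to 0.306), and the endothelial-like ratio to the 9 markers would give 5.97 and 16.8 UMIs.

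Neonatal endothelial-like cells had more Kdr and less Flt1 than the uninjured adult cells in both libraries. Kdr was at 1.55 times the uninjured level in neonatal replicate 1 (1.31 to 1.84) and at 2.20 times in replicate 2 (1.96 to 2.47). Flt1 was at 0.410 times (0.35 to 0.478) and 0.365 times (0.329 to 0.404). In replicate 1, 0 of 10 members were more than 2-fold higher, beside 10.3% of the genes compared, and 5 were lower, beside 17.4%. They were Flt1, Tek (0.466), Vegfc (0.403), Flt4 (0.482) and Angpt1, which had 0 UMIs in 140 cells, which allows at most 0.399 times the uninjured level. In replicate 2, 1 was higher, Kdr, beside 9.6%, and 3 were lower, beside 10.6%: Flt1, Flt4 (0.294) and Angpt1 (0.319). Tek and Vegfc passed the fold in replicate 1 only, with 0.787 and 1.16 in replicate 2. The members' median log2 ratio was -0.90 in replicate 1 and -0.45 in replicate 2, beside 0.05 and 0.10 for all genes. Kdr rests in part on replicate 2, since the pooled ratio of 2.03 became 1.55 without it, and was 1.35 after thinning. No barrier-like cells were named in either neonatal library, and the part of the vessel cell mix in these ratios was not tested.

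**Figure D5:**
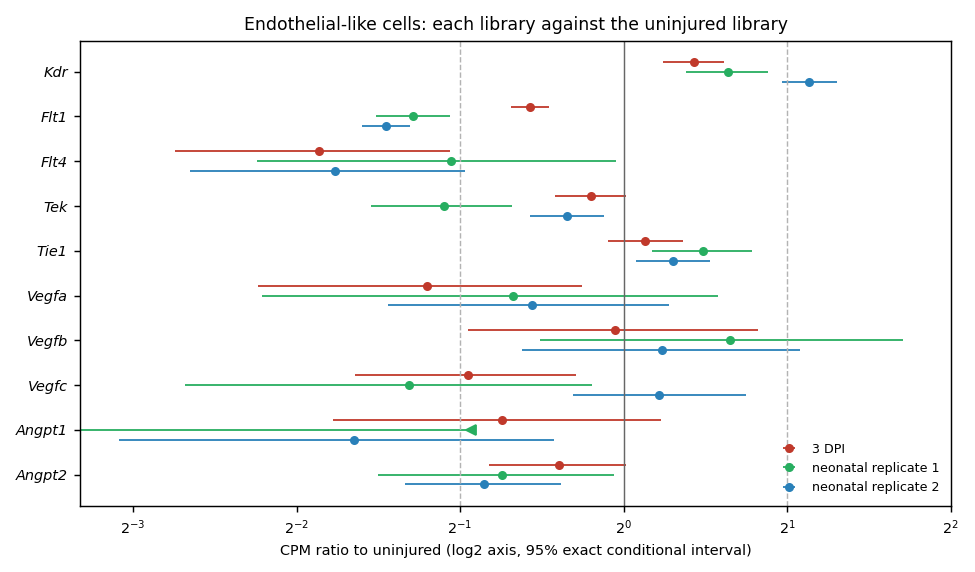
Ratio of each member's CPM in endothelial-like cells to its uninjured level, on a log2 axis, for 3 DPI and both neonatal libraries, with 95% intervals and dashed lines at 2-fold. Kdr lies above 1 and Flt1 below 1 in all 3 libraries, and the arrow marks Angpt1 in neonatal replicate 1, which had 0 UMIs. The uninjured Angpt1 UMIs of the class were all in mural-led cells.

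In the epineurial-like and Schwann-like classes, the neonatal libraries had other levels of Angpt2, Angpt1 or Flt1 than the uninjured one. Epineurial-like cells had 26 and 25 Angpt2 UMIs in neonatal replicates 1 and 2, or 30.0 and 66.3 CPM, and 9 UMIs or 10.7 CPM in the uninjured nerve, ratios of 2.81 (1.27 to 6.81) and 6.20 (2.80 to 15.1). The 9 mural markers summed to 519 and 724 CPM in the same neonatal cells and to 205 CPM in the uninjured ones, and their part in the higher Angpt2 was not tested. Over both neonatal libraries the ratio was 3.84, and 24.5 at resolution 0.8. Neonatal Schwann-like cells had 58 and 59 Angpt2 UMIs (26.5 and 14.8 CPM) and only 3 and 4 of Angpt1. The uninjured Schwann-like cells had 14.5 CPM of Angpt2 from 6 UMIs, so the neonatal level was not apart from it (ratios 1.83, 0.789 to 5.18, and 1.02, 0.44 to 2.88). Angpt1 in neonatal epineurial-like cells was at 0.508 times (0.348 to 0.734) and 0.178 times (0.0694 to 0.382) the uninjured level, but over both libraries the direction turned at resolution 0.8, to 2.52 times. Flt1 in neonatal Schwann-like cells had 1 and 15 UMIs, or 0.457 and 3.76 CPM, against 19 UMIs or 46.0 CPM in the uninjured nerve. The ratios were 0.00994 (0.000239 to 0.0625) and 0.0816 (0.0386 to 0.169). At each library's endothelial-like ratio of Flt1 to the 9 endothelial markers, 16.8 UMIs would be counted in the uninjured Schwann-like cells. The same reckoning gives 21.24 and 25.03 UMIs in neonatal replicates 1 and 2, both above their counts. Whether Schwann-like cells themselves differ in Flt1 was not tested.

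The other genes of the pathway were read from 4 lists. Of 12 further ligands, co-receptors and relatives, 9 were tested across classes, 3 were higher in endothelial-like cells than in the rest, beside 17.8% of all genes, and 4 were lower, beside 12.6%. These shares over all genes hold for the counts of the other lists in this contrast as well. Ptprb, which encodes the phosphatase VE-PTP that acts on TIE2 and VEGFR2, was 6.28 higher on the log2 scale and was found in 67.9%, 75.5%, 57.1% and 54.9% of the endothelial-like cells, at 947, 1263, 600 and 748 CPM. The neuropilin co-receptors of VEGF, Nrp2 and Nrp1, were 1.96 and 1.33 higher. The lower members were Svep1, a matrix protein that binds TIE1, and the angiopoietin-like genes Angptl1, Angptl2 and Angptl7. Figf, which encodes VEGFD, a further ligand of VEGFR3, was found in 20.9% of epineurial-like cells at 3 DPI and in 14.8% in the uninjured nerve. Pgf, a ligand of VEGFR1, reached 77.3 CPM in uninjured VSM/pericyte-like cells (7.87% of cells) and 18.1 CPM in endoneurial-like cells at 3 DPI (8.3%). Angpt4 was found in 6.83% of the uninjured epineurial-like cells. Angptl7 was highest in the endoneurial-like cells, at 657, 4070, 285 and 504 CPM. Angptl1 in epineurial-like cells stood at 450, 875, 399 and 270 CPM.

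Between mesenchymal classes, where 4.13% of all genes were higher and 5.72% lower in endoneurial-like cells, the same list split, with Angptl7 (log2 difference 3.05) and Nrp2 (2.83) higher in endoneurial-like cells and Svep1 (-4.22), Angptl1 (-3.55), Figf (-2.61), Angptl2 (-2.26) and Nrp1 (-1.35) lower. Of 8 receptor signalling genes tested, Nos3 (5.42), Plcg1 (2.28) and Foxo1 (2.16) were higher in endothelial-like cells than in the rest and Pik3r1 (-0.83) was lower. Of 8 tested genes of sprouting and tip cells, 5 were higher, Aplnr (6.87), Apln (6.18), Dll4 (5.94), Esm1 (5.76) and Pdgfb (5.09), and Nid1 was lower (-1.15), with a list median of 5.42 beside 0.06 for all genes. Of 12 hypoxia genes 4 were higher, Slc2a1 (2.91), Ankrd37 (2.05), Egln3 (1.60) and Ndrg1 (1.55), and P4ha1 was lower (-1.23), with a median of 0.11. In VSM/pericyte-like against endothelial-like cells, the 4 lists had 1, 1, 0 and 1 genes higher, beside 10.9% of all genes, and 2, 3, 5 and 2 lower, beside 11.9%.

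In endothelial-like cells at 3 DPI, 3 of 8 sprouting genes compared were over 2-fold higher than in the uninjured nerve, beside 7.42% of all genes compared, and 1 was lower, beside 6.22%. Aplnr, the apelin receptor, was at 2.88 times, Nid1 at 2.95 and Nid2 at 2.74 times, and Dll4, a Notch ligand of tip and arterial cells, at 0.395 times. Within the 2-fold limit, Pdgfb was at 0.617, Apln at 0.711, Esm1 at 1.10 and Cxcr4 at 1.65 times. Nid1 and Nid2 were not among the list genes higher in endothelial-like cells than in the other classes. Of 12 hypoxia genes, 1 was higher, a share near that of all genes, Pgk1 (2.40), and Slc2a1 (0.264), Egln3 (0.207) and Adm (0.361) were lower. Slc2a1 is also a barrier gene. The further ligands and co-receptors had 1 of 7 higher and 1 lower, and the signalling genes 0 of 8 higher and 1 lower. In the neonatal libraries 7 and 6 of 9 sprouting genes were over 2-fold higher, beside 10.3% and 9.6% of all genes. In both, 0 were lower, beside 17.4% and 10.6%. Apln was at 9.98 and 7.30 times, Unc5b at 21.2 and 12.6 times and Nid2 at 18.7 and 8.14 times the uninjured level. Unc5b had 6 uninjured UMIs, with intervals of 8.77 to 61.9 and 5.43 to 35.6. Nid2 had 19, with intervals of 11.3 to 32.4 and 4.99 to 14.0. The same shares hold for the other lists. Of the hypoxia genes 0 were higher, and 2 of 10 and 4 of 12 were lower. Of 8 signalling genes 0 were higher, and 2 and 1 were lower. Of the further ligands and co-receptors 0 of 5 and 1 of 6 were higher, and 2 and 1 were lower. The list counts at 3 DPI and in the neonatal libraries share the uninjured library as their base.

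Genes with the pattern most like each member were read from 28 sums of class and library, by Pearson's r of log2(CPM + 10), as a description. These points share libraries, and most of the pattern is the split of endothelial-like cells from the rest. Kdr was most like Robo4 (r = 0.98), Tie1 like Cyyr1 (0.98), Flt1 like Gpr116 (0.96), Flt4 like Ptprr (0.95), Vegfc like Nos3 (0.90) and Tek like Enpp3 (0.89). Angpt1 was most like Pdgfrb, a mural and fibroblast receptor gene (0.87), Angpt2 like Lmcd1 (0.87), Vegfa like Gsc (0.76) and Vegfb like Mrpl42, a mitochondrial ribosome gene (0.92). Vegfa had the lowest best value of the 10 members.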

How the data were processed

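Single cells of the mouse sciatic nerve were measured by Drop-seq in 4 libraries. The authors built digital expression matrices on mm10 (per the labels), guided by the Drop-seq cookbook for alignment (version 1.2), and deposited raw counts of UMIs per gene and cell barcode, without normalization. The sources used here do not give the aligner's version or the annotation. The files held 2500 (3 DPI), 2000 (uninjured), 2500 and 6200 (neonatal) barcodes. Barcodes with fewer than 200 genes, over 10% mitochondrial or over 5% hemoglobin UMIs were removed, then the 5% with the highest doublet score per library; remaining doublets were not marked. Counts were normalized with scran (1.30.0) and clustered in Seurat (5.3.0; 2000 variable genes, 20 components, resolution 0.4), with all members and listed pathway genes held out. Clusters took the class with the highest marker score; the thresholds for class and subcluster names (score of at least 0.7, at least 3 markers found and 1 among the leading 10 genes) were chosen after the clusters were seen, so classes are written as "-like". The authors' own cell assignment was not used. Members and gene lists were chosen with earlier results of these data known. All 10 members are named. Other pathway genes are named where at least 5% of the cells of a class had a UMI. Genes of the lists are given with values where they passed a test or a 2-fold limit, and the sprouting genes compared at 3 DPI in full.

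UMIs were summed per class and library. Shares of cells have exact Clopper-Pearson 95% intervals, CPM exact Poisson intervals and ratios exact conditional intervals; these cover counting error only, as cells are not replicates. Class contrasts were tested with edgeR (4.0.16) by the quasi-likelihood test on class sums, with library as a block, Benjamini-Hochberg adjustment over all genes and a threshold of 0.05, for the 6 classes present in all libraries; the test was checked on simulated counts. Nothing says that the libraries came from separate animals beyond their labels, so p-values measure only how class differences vary between these libraries. The spread of a gene was shared by all classes. Like genes needed at least 100 UMIs. Alternatives were DESeq2 (1.42.0), other size factors, no low-count filter, at least 500 genes, 5% mitochondrial UMIs, no doublet removal, library-size normalization, resolution 0.8, classes from a cell's own markers, thinning to 500 UMIs, each library left out and, added after seeing the data, the endothelial-like class without its subclusters led by mural genes. The versions of R and Python were 4.3.3 and 3.11.15.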

Additional observations from a re-analysis of the deposited data

Results flagged for a closer look

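Vegfa differed from the uninjured nerve in opposite directions in different classes at 3 DPI. It stood at 7.07 times the uninjured level in the immune-like cells and at 0.435 times in the endothelial-like cells. Where each cell took its class from its own markers, the endothelial-like value was 0.913 times. The difference between these classes was not tested, as each condition was 1 library, and the immune-like value rests on 1 uninjured UMI.

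Flt1 at 3 DPI stood at 2.95 times the uninjured level in the VSM/pericyte-like cells, at 0.458 times in the endoneurial-like cells and at 0.0486 times in the Schwann-like cells. These differences were not tested either. In the Schwann-like cells the values were 1 UMI at 3 DPI and 19 in the uninjured nerve, where 16.8 would be counted at the endothelial-like ratio of Flt1 to the endothelial markers.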

How the results depend on the processing

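Of 363 alternatives to the class contrast differences, 339 kept direction and side of the threshold, 20 lost the call, 2 gained it and 2 reversed; of the condition ratios 415 of 470, and of the shares of cells 281 of 313, stayed within the set range. Without the mural-led subclusters (added after seeing the data), Kdr at 3 DPI was 1.87 (1.34 as reported), Flt1 0.863 (0.673) and Tek 0.734 (0.870), Flt1 over both neonatal libraries was 0.344 (0.377), 2 rather than 4 members passed 2-fold there, and 1 member rather than 0 was lower in endothelial-like cells. After thinning, the ratio of Flt1 in VSM/pericyte-like cells was 1.61 (2.95), of Angpt1 in endoneurial-like cells 4.74 (29.6), of Vegfa in epineurial-like cells 1.23 (1.99) and of neonatal Kdr 1.35 (2.03), and Tek in neonatal perineurial-like cells reversed (0.946). Thinned 3 DPI shares were 4.77% for epineurial-like Tek (16.1%), 8.11% for epineurial-like Vegfa (30.0%), and 5.71%, 5.71% and 7.14% for VSM/pericyte-like Flt1, Angpt1 and Angpt2 (24.7%, 18.2% and 26.0%); members past 2-fold were 1 (2) at 3 DPI and 2 (4) in the neonatal libraries. The epineurial-like class depended on the settings: with at least 500 genes, 5% mitochondrial UMIs and library-size normalization the Vegfa ratio was 2.81, 2.90 and 2.77, the Tek share 26.8%, 24.8% and 24.2%, and the Vegfa share 38.5%, 35.5% and 34.6%. With a cell's own markers Angpt1 in endoneurial-like cells was 5.32. The VSM/pericyte-like count of 2 higher members was 1 with own markers, resolution 0.8, at least 500 genes, no doublet removal, library-size normalization, DESeq2 and each library left out. The 5 members lower in endoneurial-like cells were 2 with own markers, 3 with 5% mitochondrial UMIs or resolution 0.8, and 3 to 4 with a library left out. Without the low-count filter 1 member was lower in endothelial-like cells. At resolution 0.8 Vegfc in epineurial-like cells at 3 DPI (1.03) and neonatal Vegfc and Angpt1 there (2.52 each) reversed, and Angpt1 there at 3 DPI (2.06) turned direction, as did neonatal endoneurial-like Tek (1.05) with library-size normalization. Without the 3 DPI library the log2 difference of Angpt1 in endothelial-like cells was 0.87 and of Flt1 in endoneurial-like cells -0.17, both reversed, and with any library left out they ran from -0.96 to 0.87 and from -0.17 to 0.64. Neonatal Kdr ran from 1.55 to 2.20 with a neonatal library left out. The causes were not tested. No paired analysis was possible because the adult conditions had 1 library each.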
